A study of Arabidopsis thaliana with 2 samples.

Results

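The 22 AUXIN RESPONSE FACTOR (ARF) genes and 29 Aux/IAA genes of Arabidopsis thaliana were examined for places where the transcription factor LEAFY (LFY) was recorded on naked genomic DNA in vitro. The members were fixed by their locus identifiers, and all 51 of them were found among the 27432 protein-coding genes of chromosomes 1 to 5 in the gene table. An interval was assigned to a gene when at least 1 bp of it lay in the gene body or within 3 kb on either side. By this rule 97 of the 22514 intervals recorded on native DNA and 18 of the 4882 recorded on amplified DNA belonged to these genes. No interval belonged to 2 members.

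Auxin is perceived by F-box receptors of the TIR1/AFB group, which bind Aux/IAA proteins in the presence of the hormone and mark them for degradation. Aux/IAA proteins otherwise bind ARF proteins and recruit TOPLESS co-repressors. ARF proteins bind auxin response elements in DNA and either activate or repress the genes they bind. LFY is the factor that gives new primordia the identity of flowers, and auxin is known to promote the start of those primordia at the flank of the inflorescence meristem. The ARF protein MONOPTEROS (ARF5) is required for flower initiation and is known to activate LFY itself.

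There was 1 library, and 1 list of intervals of 400 bp, for each kind of DNA. In the DAP list, LFY carrying 5 Myc epitopes was incubated with sheared DNA taken from plants, which keeps its cytosine methylation. It was extracted from 35S::LFY seedlings (CA26 #15), in which a viral promoter drives LFY broadly, whereas the label of the DNA used for the ampDAP list names seedlings and no transgene. In the ampDAP list the DNA was copied by PCR, which removes methylation. Both sets of seedlings were 2 weeks old and had grown under long days on Murashige and Skoog medium at 0.5 strength, and in both assays the protein came from a TnT in vitro system. The lists carry positions only, without height, score or p-value, and read depth is unknown. Kind of DNA, plant source and library cannot be told apart, no test between the lists was possible, and a gene without an interval is a gene with none listed, not a gene shown to be unbound.

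The order of density along genes served as a check that intervals and gene table share a frame. DAP midpoints occurred at 266 per Mb inside protein-coding genes, at 135 per Mb in the first 500 bp outside them and at 59.4 per Mb more than 3 kb away. The corresponding ampDAP densities were 51.6, 36.8 and 22.6 per Mb. The strand of the genes was not used here, so upstream and downstream are not told apart. A window of 3 kb upstream and 1 kb downstream would hold between the smaller and the larger count that the 2 possible strands give. Where the call of a gene named below depends on the strand, this is said.

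As a whole the 51 genes carried LFY intervals about as often as other genes did. In the DAP list 42 of 51 (82.4%, exact 95% interval 69.1 to 91.6%) had at least 1 interval, against 82.3% of all protein-coding genes. In the ampDAP list 13 of 51 (25.5%, 14.3 to 39.6%) had at least 1, against 32.6% of all protein-coding genes. Per length of window, with overlapping windows merged, the members held 21.7 DAP intervals per 100 kb (exact Poisson 95% interval 17.6 to 26.4) and all protein-coding genes 21.1. The ampDAP values were 4.02 per 100 kb (2.38 to 6.35) and 4.43. All intervals given here and below cover counting error only. Some listed DAP intervals overlapped each other, as at ARF10. Each was counted separately, and the Poisson intervals treat them as independent.

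Compared with ARF genes, Aux/IAA genes had the higher DAP share and the lower ampDAP share, within wide and overlapping intervals. The DAP order turned only with the gene body alone, and the ampDAP order only in the flanks without the body. A DAP interval was present at 26 of 29 Aux/IAA genes (89.7%, 72.6 to 97.8%) and at 16 of 22 ARF genes (72.7%, 49.8 to 89.3%). An ampDAP interval was present at 6 Aux/IAA genes (20.7%, 7.99 to 39.7%) and at 7 ARF genes (31.8%, 13.9 to 54.9%). Each of these 4 intervals includes the share over all protein-coding genes. A stricter count required at least 1 interval in the window under each possible strand, not necessarily the same interval. By this count the DAP shares were 75.9% of Aux/IAA and 68.2% of ARF genes, beside 66.9% of all protein-coding genes. The ampDAP shares were then 13.8% and 27.3%, beside 20.5%. With the gene body only, the DAP share was 54.5% of ARF and 37.9% of Aux/IAA genes, beside 47.1% of all protein-coding genes. In the flanks without the body, the ampDAP share was 13.6% of ARF and 17.2% of Aux/IAA genes, beside 22.8%. At least 3 DAP intervals were listed at 8 of 22 ARF genes (36.4%) and 5 of 29 Aux/IAA genes (17.2%), against 31.2% of all protein-coding genes.

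**Figure D1:**
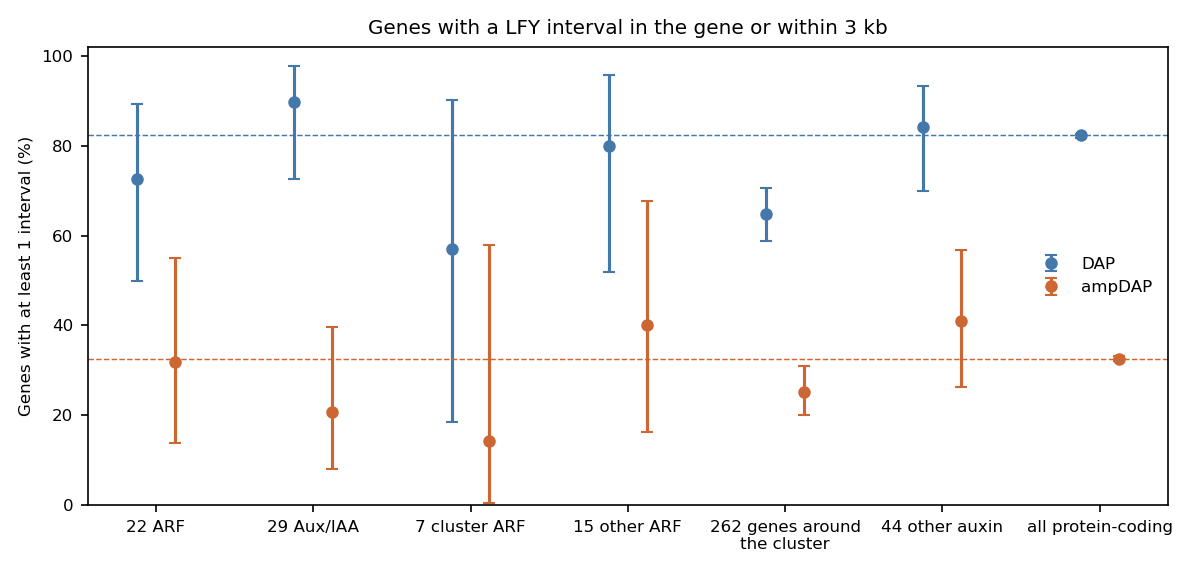
Percentage of genes with at least 1 interval in the gene or within 3 kb, for the DAP list (blue) and the ampDAP list (orange). Points are shares of 1 library each, bars are exact 95% binomial intervals and dashed lines mark all protein-coding genes (82.3% and 32.6%). The bars of both families cross the dashed line of their list, while those of the genes around the chromosome 1 cluster lie below them. The bars treat genes as independent, although neighbouring genes can share an interval.

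The 5 ARF genes of class A encode the glutamine-rich proteins that act as activators. ARF5 (MONOPTEROS, AT1G19850) had 4 DAP intervals and 1 ampDAP interval. Of these, 3 DAP intervals lay inside the gene body, at chr1:6888415-6888814, chr1:6888880-6889279 and chr1:6889841-6890240. The ampDAP interval, chr1:6888443-6888842, lay 28 bp from the first of them by midpoint. The remaining DAP interval, chr1:6893596-6893995, had its midpoint 2391 bp beyond the gene and overlapped the neighbouring AT1G19860. At ARF5 the amplified DNA thus gave an interval at 1 of 4 sites, and that site was intragenic.

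ARF8 (AT5G37020), which with ARF6 promotes stamen and gynoecium maturation, had 2 DAP intervals. One, chr5:14629173-14629572, spanned the lower-coordinate edge of the gene and had an ampDAP partner at chr5:14629181-14629580. The other, chr5:14630139-14630538, lay inside the gene without a partner. ARF6 had 3 DAP intervals, of which 1 lay in the gene and 2 lay between 1 and 3 kb away on opposite sides. ARF7 (NPH4), which with ARF19 controls lateral root formation, had 2 DAP intervals, and ARF19 had none in either list. Class A therefore had DAP intervals at 4 of 5 genes and ampDAP intervals at 2 of 5, near the 82.3% and 32.6% of all protein-coding genes.

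Class C consists of ARF10, ARF16 and ARF17, which are targets of the microRNA miR160. ARF10 (AT2G28350) had the most intervals of any member, with 6 in the DAP list and 3 in the ampDAP list. At least 6 DAP intervals were listed at 2.19% of all protein-coding genes, and at least 3 ampDAP intervals at 0.977%. Both conditions were met by 73 protein-coding genes (0.266%), of which ARF10 is one.

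The ARF10 intervals fell into an intragenic series and a series beyond the higher-coordinate edge. Inside the gene lay the DAP intervals chr2:12114683-12115082, chr2:12115049-12115448, chr2:12115835-12116234 and chr2:12116071-12116470. The first of these overlapped the second, and the third overlapped the fourth. Beyond its edge lay chr2:12117141-12117540 and chr2:12117764-12118163, with midpoints 383 and 1006 bp from the gene. The ampDAP intervals were chr2:12116086-12116485, chr2:12117138-12117537 and chr2:12117766-12118165, and their midpoints lay 15, 3 and 2 bp from those of DAP intervals. ARF10 was also the protein-coding gene nearest to all 9 intervals.

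ARF16 (AT4G30080) had 3 DAP intervals and 1 ampDAP interval, none of them within 1 kb of the gene. The DAP intervals were chr4:14699868-14700267 and chr4:14701351-14701750 on one side and chr4:14707689-14708088 on the other. The last had an ampDAP partner at chr4:14707648-14708047, so whether ARF16 has an ampDAP interval in a window of 3 kb upstream and 1 kb downstream depends on its strand. ARF17 (AT1G77850) had 1 intragenic DAP interval and no ampDAP interval.

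Class B holds the 14 remaining ARF genes, which act mainly as repressors. Of the 7 outside the chromosome 1 cluster, 5 had a DAP interval in the gene or within 3 kb (71.4%) and 2 an ampDAP interval (28.6%). Both shares were below the 82.3% and 32.6% of all protein-coding genes. The same 5 and 2 genes had an interval overlapping the gene body, above the 47.1% and 12.9% of all protein-coding genes. Median gene length was 4227 bp for the 7 and 2078 bp for all protein-coding genes. The exact 95% intervals of the 71.4% and 28.6% included the values of all protein-coding genes under both rules. ARF3 (ETTIN, AT2G33860), which patterns the gynoecium and the abaxial side of organs, had 2 intervals in each list. The DAP interval chr2:14324812-14325211 and its ampDAP partner chr2:14324818-14325217 reached over the lower-coordinate edge of the gene. Their midpoints lay 195 and 189 bp outside ARF3, and both overlapped the neighbouring AT2G33855. The DAP interval chr2:14322391-14322790 lay 2616 bp away. The ampDAP interval chr2:14328837-14329236 lay over the opposite edge of ARF3, and the nearest DAP midpoint was 4025 bp from it. It was the only ampDAP interval at any of the 51 genes without a DAP partner.

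ARF9 (AT4G23980) had 4 DAP intervals, all inside the gene, at chr4:12451454-12451853, chr4:12452708-12453107, chr4:12454046-12454445 and chr4:12454319-12454718. The first had an ampDAP partner at chr4:12451447-12451846. ARF1 and ARF18 also had 4 DAP intervals each, of which 3 overlapped the gene body, and ARF4 had 2 inside its body. None of ARF1, ARF4 and ARF18 had an ampDAP interval, and the nearest ampDAP midpoints lay 14447, 20746 and 43510 bp from the genes. At least 4 DAP intervals were listed at 15.1% of all protein-coding genes. ARF2, which restrains organ growth and promotes leaf senescence, and ARF11 had no interval in either list. Their nearest DAP midpoints lay 3781 and 3858 bp away, just outside the window.

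**Figure D2:**
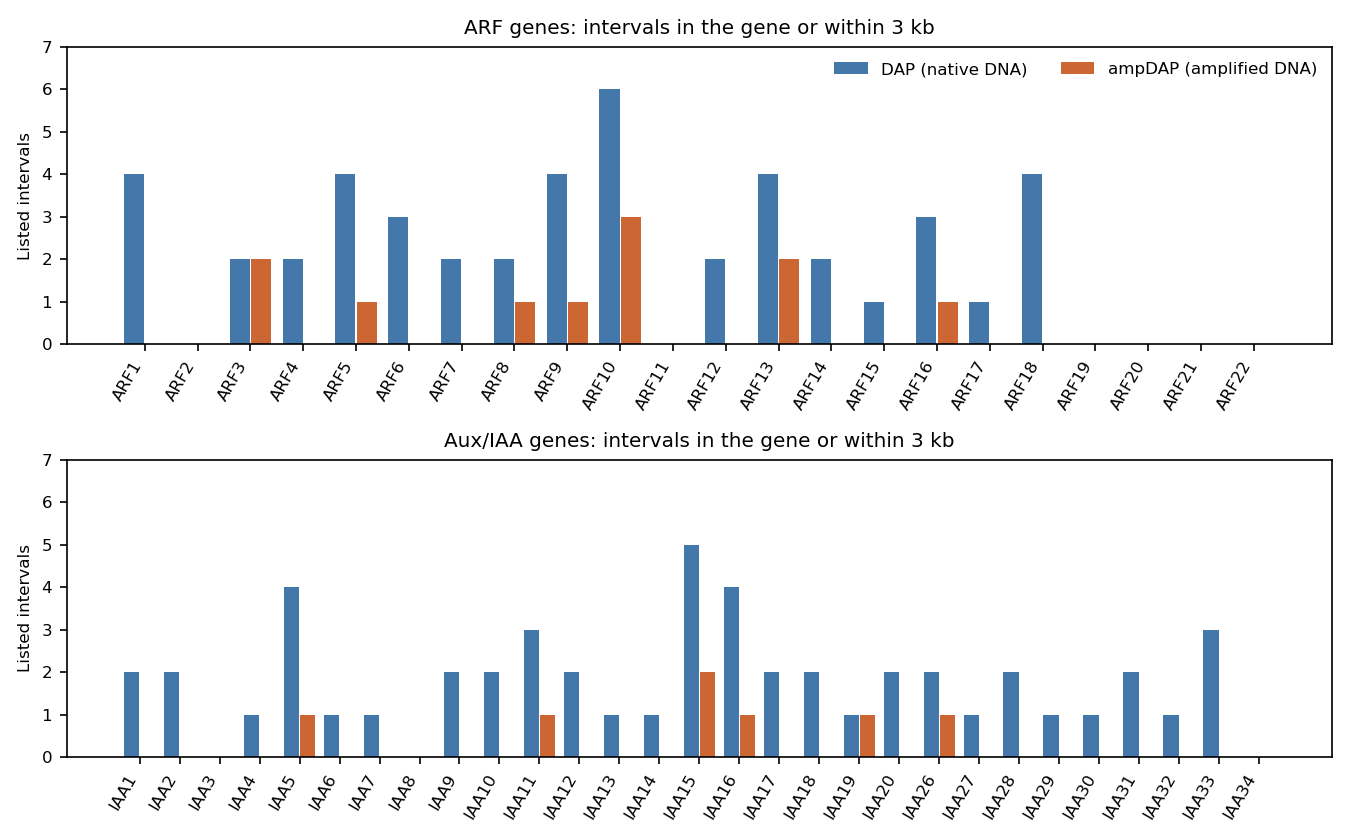
Number of listed intervals in each gene or within 3 kb, for the DAP list (blue) and the ampDAP list (orange), with ARF genes above and Aux/IAA genes below. ARF10 stands highest in both lists, with 6 and 3 intervals, and no gene has more ampDAP than DAP intervals.

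ARF12 to ARF15 and ARF20 to ARF22 form a group of closely related class B genes on chromosome 1, known for expression in seeds. Here they spanned 668 kb, and the last of them lay 1220 kb from the longest stretch of chromosome 1 without an interval midpoint. A DAP interval was listed at 4 of these 7 genes (57.1%, 18.4 to 90.1%) and at 12 of the 15 other ARF genes (80%, 51.9 to 95.7%). An ampDAP interval was listed at 1 of 7 (14.3%, 0.361 to 57.9%) and at 6 of 15 (40.0%, 16.3 to 67.7%). The cluster had the lower share in both lists, with widely overlapping intervals.

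The neighbourhood of the cluster also had lower shares of genes with an interval than all protein-coding genes. Among the 262 other protein-coding genes from 500 kb before the first to 500 kb after the last cluster gene, 64.9% had a DAP interval (58.8 to 70.7%), against 82.3% of all protein-coding genes. An ampDAP interval was present at 25.2% of them (20.1 to 30.9%), against 32.6%. The 262 genes shared 200 DAP and 43 ampDAP intervals, whereas the binomial intervals treat genes as independent. Per 100 kb of window, ampDAP intervals around the cluster numbered 3.46 (2.5 to 4.66), a range that includes the 4.43 of all protein-coding genes. Per 100 kb of window, DAP intervals numbered 14.1 at the cluster genes (6.46 to 26.8), 16.1 around them (13.9 to 18.5) and 23.7 at the other ARF genes (16.7 to 32.7). The cluster genes were thus closer to their surroundings than to the other ARF genes by this measure, although their interval included both values. The measure joins gene bodies and flanks, which are given apart below.

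Within the cluster the intervals lay mostly outside the gene bodies. ARF13 (AT1G34170) had 4 DAP intervals, of which chr1:12445720-12446119 was the only one in the cluster that overlapped a member's body. Its other DAP intervals were chr1:12441605-12442004, overlapping the neighbouring AT1G34160, and chr1:12449164-12449563 and chr1:12449532-12449931, both overlapping the neighbouring NAC016. The 2 ampDAP intervals of the cluster were partners of these, at chr1:12441603-12442002 and chr1:12449545-12449944. Both overlapped genes other than an ARF, and neither overlapped an ARF body.

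ARF12 (AT1G34310) had DAP intervals at chr1:12514058-12514457 and chr1:12514298-12514697, both on one side, 2737 and 2977 bp away by midpoint and overlapping AT1G34315. Its DAP call therefore depends on its strand. ARF14 (AT1G35540) had chr1:13107548-13107947, 887 bp from the gene by midpoint, and chr1:13113501-13113900, 2000 bp away on the other side. ARF15 (AT1G35520) had chr1:13081778-13082177, 842 bp away. The intervals of ARF14 and ARF15 at 887 and 842 bp lay on the same coordinate side of each gene, at nearly the same distance. ARF20, ARF21 and ARF22 had no interval in either list, and their nearest DAP midpoints lay 12828, 5535 and 10493 bp away.

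Counted by midpoints inside the gene bodies, DAP intervals numbered 1 in 21.67 kb at the cluster (4.61 per 100 kb, 0.117 to 25.7) and 23 in 66.19 kb at the other ARF genes (34.8 per 100 kb, 22 to 52.1). Bodies of the genes around the cluster had 24.9 per 100 kb (21 to 29.4), and those of all protein-coding genes 26.6. In the flanks of 3 kb the cluster had 19 per 100 kb (8.22 to 37.5) and the other ARF genes 15.6 (8.5 to 26.1). Flanks of the genes around the cluster had 13.6 per 100 kb (11.9 to 15.6), and those of all protein-coding genes 20.3. These flanks were summed gene by gene without merging, so they include bodies of neighbouring genes and can count an interval more than once. The Poisson intervals do not allow for such repeated counts. Relative to its surroundings the cluster was thus lower in the bodies and higher in the flanks, and its intervals included both surrounding values. The lower value at the cluster was therefore in the gene bodies, where it rests on a single interval. Closely related copies can share reads, and how the authors treated reads that map to more than 1 place is not given in the sources used here. Its part in these values was not tested.

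**Figure D3:**
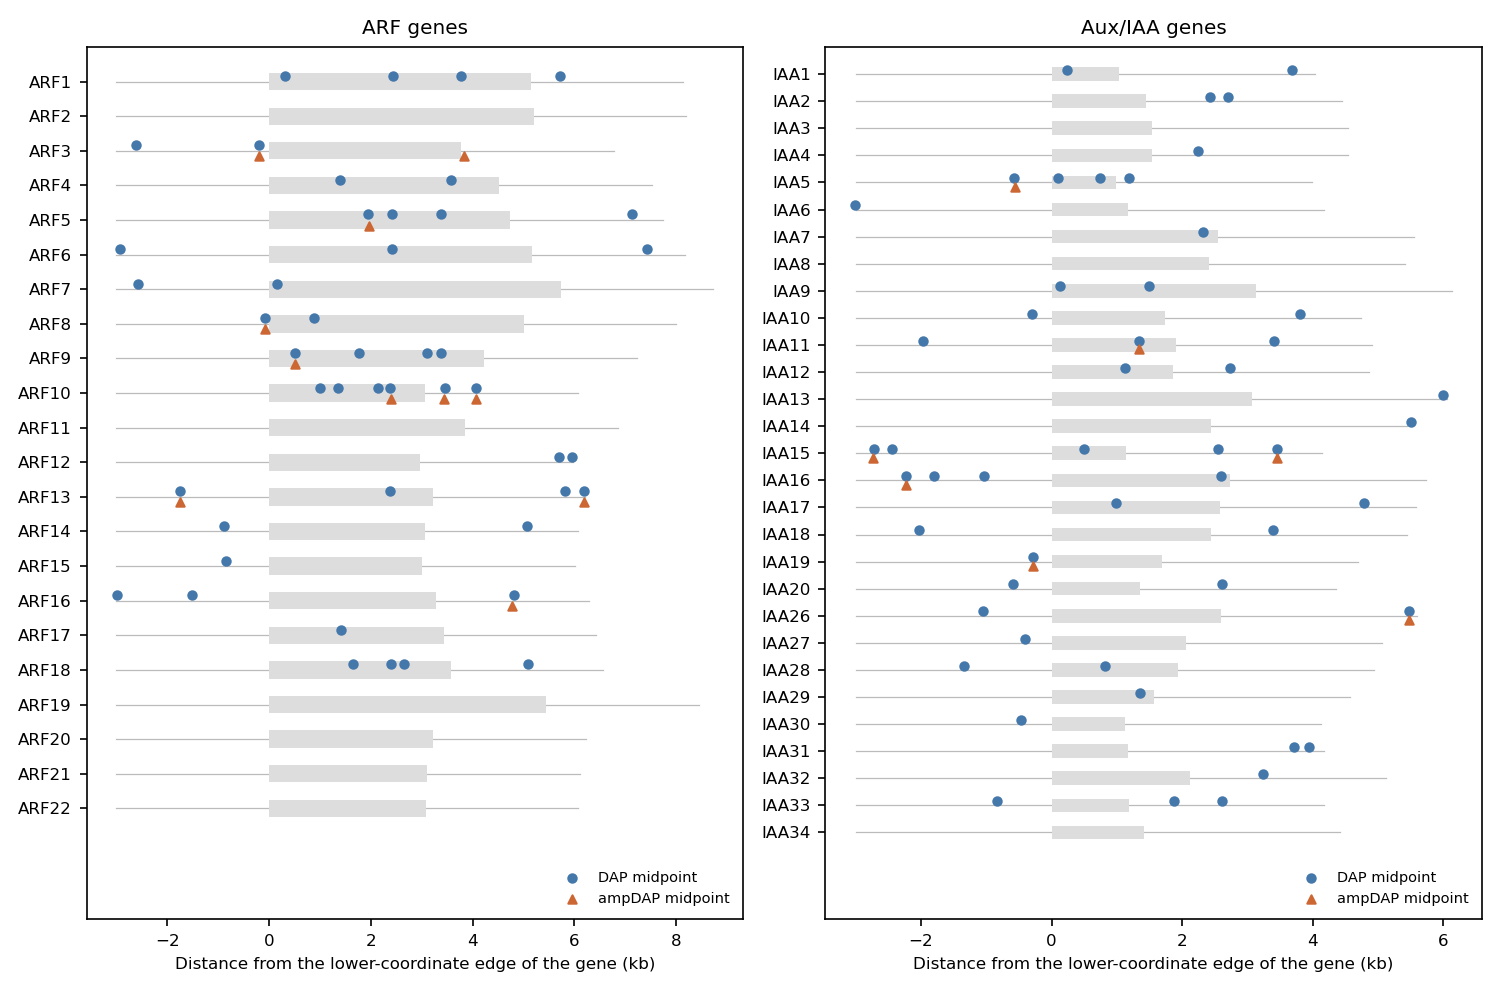
Position of interval midpoints (DAP, blue circles; ampDAP, orange triangles) relative to the lower-coordinate edge of each gene, in kb. Grey bars are gene bodies and thin lines the 3 kb on either side; genes are not turned to a common strand. Most ampDAP triangles sit under a DAP circle, ARF3 has 1 without a partner, and the bodies of 6 of the 7 cluster ARF genes are empty.

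Among the Aux/IAA genes, ampDAP intervals were listed at IAA5, IAA11, IAA15, IAA16, IAA19 and IAA26. IAA19 (MASSUGU2, AT3G15540), a repressor in tropic growth of the hypocotyl, had a single DAP interval, chr3:5263511-5263910, with an ampDAP partner at chr3:5263520-5263919. Its midpoint lay 291 bp from the gene, and no other protein-coding gene had it within 3 kb. IAA11 (AT4G28640) had a partnered pair inside the gene body, at chr4:14143207-14143606 and chr4:14143209-14143608. Its further DAP intervals, chr4:14139892-14140291 and chr4:14145271-14145670, overlapped neighbouring genes.

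IAA5 (AT1G15580), whose RNA rises quickly after auxin treatment, had 4 DAP intervals within a short stretch. They were chr1:5364739-5365138, chr1:5365411-5365810, chr1:5366056-5366455 and chr1:5366499-5366898. The first had an ampDAP partner at chr1:5364754-5365153. Both the first and the second overlapped the neighbouring cyclin gene CYCA2;3.

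IAA15 (AT1G80390) had the most DAP intervals of the family, with 5 in the DAP list and 2 in the ampDAP list. The ampDAP intervals chr1:30218701-30219100 and chr1:30224886-30225285 overlapped the genes on either side, AT1G80380 and AT1G80400, as did their DAP partners chr1:30218715-30219114 and chr1:30224889-30225288. The other DAP intervals of IAA15 were chr1:30218987-30219386, which also overlapped AT1G80380, chr1:30221921-30222320, which was intragenic, and chr1:30223982-30224381. At least 5 DAP intervals were listed at 6.36% of all protein-coding genes.

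IAA16 (AT3G04730) had 4 DAP intervals, at chr3:1285729-1286128, chr3:1286148-1286547, chr3:1286921-1287320 and, with its midpoint inside the gene, chr3:1290557-1290956. Only the first had an ampDAP partner, chr3:1285721-1286120. That partner and the first and second DAP intervals overlapped the neighbouring PR4. IAA26 (AT3G16500) had chr3:5610951-5611350 and chr3:5617481-5617880, and the second had an ampDAP partner, chr3:5617485-5617884, overlapping AT3G16510. The ampDAP calls of IAA16 and IAA26 depend on the strand of the gene. Of the 6 Aux/IAA genes with an ampDAP interval, only IAA11 and IAA19 were the protein-coding gene nearest to it.

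The other 23 Aux/IAA genes had no ampDAP interval. IAA33 had 3 DAP intervals. IAA1, IAA2, IAA9, IAA10, IAA12 (BODENLOS, which restrains ARF5 in the embryo), IAA17 (AXR3), IAA18, IAA20, IAA28 and IAA31 had 2 each. IAA4, IAA6, IAA7, IAA13, IAA14 (SOLITARY-ROOT), IAA27, IAA29, IAA30 and IAA32 had 1 each. IAA3 (SHORT HYPOCOTYL 2), IAA8 and IAA34 had none, with nearest DAP midpoints 6086, 4688 and 4888 bp away. The DAP calls of IAA6, IAA13, IAA14 and IAA31 depend on the strand, and the intervals of IAA6 and IAA14 entered the window by their edge only, with midpoints 3008 and 3072 bp from the gene.

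Of the Aux/IAA proteins, 6 (IAA20, IAA30, IAA31, IAA32, IAA33 and IAA34) lack the canonical domain II through which the receptors bind. A DAP interval was listed at 5 of these 6 genes and at 21 of the other 23, beside 82.3% of all protein-coding genes. None of the 6 had an ampDAP interval (a share of up to 45.9% by the exact interval), against 6 of 23 (26.1%, 10.2 to 48.4%) and 32.6% of all protein-coding genes. The bodies of these 6 genes held no DAP midpoint in 8.386 kb, which allows up to 44 per 100 kb, against 26.6 per 100 kb in the bodies of all protein-coding genes. No test was run on these counts, and the intervals of the 2 shares overlapped.

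The families differed in gene length and in where their intervals lay. Median gene length was 3670 bp for ARF, 1740 bp for Aux/IAA and 2078 bp for all protein-coding genes. Of 46 DAP intervals at ARF genes, 26 (56.5%) overlapped the gene body, 5 lay within 1 kb of it and 15 lay farther out. Of 51 at Aux/IAA genes, 13 (25.5%) overlapped the body, 16 lay within 1 kb and 22 farther out. Over all pairs of a protein-coding gene and a DAP interval in its window, 36.4% overlapped the body. Per length the contrast was smaller, with 27.3 midpoints per 100 kb of gene body for ARF (17.5 to 40.6), 24.1 for Aux/IAA (12.8 to 41.2) and 26.6 for all protein-coding genes.

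Most of these intervals could be assigned to a neighbour as well. Of the 97 DAP intervals, 76 lay within 3 kb of at least 1 further protein-coding gene, and for 43 the nearest protein-coding gene was not the member. The 43 include chr5:7016403-7016802, whose midpoint lay inside both ARF7 and CPN20 and was counted for CPN20. Of the 18 ampDAP intervals, 14 were within 3 kb of a further gene and 9 were nearest to another. Sharing was common at all protein-coding genes too. There, 21556 DAP intervals made 53085 pairs of a gene and an interval, and 4520 ampDAP intervals made 11034. The shares with a further or nearer gene were not computed over all protein-coding genes. The 9 nearest to the member were at ARF3, ARF5, ARF8, ARF9, ARF10, IAA11 and IAA19. An interval near a gene is a position only and does not show that LFY acts on that gene.

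At these genes, as across the genome, ampDAP intervals were nearly a subset of DAP intervals. A partner was counted when midpoints lay within 200 bp, and 17 of 18 ampDAP intervals (94.4%, 72.7 to 99.9%) had one, against 95.7% of the ampDAP intervals at all protein-coding genes. The partners' midpoints lay a median of 8 bp apart and at most 41 bp, against a median of 7 bp at all protein-coding genes. In the other direction, 10 of 46 DAP intervals at ARF genes (21.7%, 10.9 to 36.4%) and 7 of 51 at Aux/IAA genes (13.7%, 5.7 to 26.3%) had an ampDAP partner. The value at all protein-coding genes was 20.1%, inside both intervals. At class C the share was 4 of 10 (40.0%, 12.2 to 73.8%), with 3 of the 4 at ARF10.

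The other genes of auxin signalling, transport and metabolism, taken from a list of 44, are set beside the members. A DAP interval was listed at 37 of them (84.1%, 69.9 to 93.4%) and an ampDAP interval at 18 (40.9%, 26.3 to 56.8%), and both intervals include the shares over all protein-coding genes. Among the 6 receptors, ampDAP intervals were listed at TIR1 and AFB5, with 2 and 1. Among the 5 co-repressors they were listed at TPR1 and TPR4, and TPL had only 1 DAP interval. Both calls of AFB5, the ampDAP call of TPR4 and the DAP call of TPL depend on the strand. For the PIN efflux carriers and the kinase PID, 6 of 9 genes had an ampDAP interval (66.7%, 29.9 to 92.5%). PIN6 and PIN7 had 6 DAP and 3 ampDAP intervals each, as many as ARF10, and PID had 3 and 2.

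No ampDAP interval was listed at the 4 influx carriers. Of the 14 genes of auxin synthesis, 4 had one, with 3 at YUC4, which acts in flower and leaf development, and 1 each at YUC9, YUC11 and TAR1. Of 6 GH3 genes, whose products conjugate auxin to amino acids, 4 had one (66.7%, 22.3 to 95.7%), with 2 each at GH3.3 and GH3.4. Every one of these group intervals included the 32.6% of all protein-coding genes.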

How the data were processed

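Per the labels, LFY was assayed by DAP-seq and ampDAP-seq with 1 library each. Per the submitters' processing notes, Bowtie2, SAMtools and MACS2 were used with the TAIR10 build; versions, thresholds, controls and the pooling of replicates are not given in the sources used here. The authors deposited 3 columns, chromosome, start and end, with no score or depth, and every interval was 400 bp wide. Coordinates are TAIR10, counted from 1. Genes came from a RefSeq table of TAIR10.1, whose 5 nuclear chromosomes are known to be those of TAIR10; its coordinates are not printed. The planned window of 3 kb upstream and 1 kb downstream was replaced by 3 kb on either side, since strand was not used here, and the other windows tried were made symmetrical too. The planned sequence and motif results were not analysed here. The members and lists were chosen with earlier results of these data known. All members are accounted for; coordinates are given for those with an ampDAP interval and for the 7 cluster genes. Shares carry exact Clopper-Pearson 95% intervals, densities exact Poisson intervals (Python 3.11.15, scipy 1.17.1). No test was run. The counting was tested on simulated data.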

Additional observations from a re-analysis of the deposited data

How the results depend on the processing

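Of 99 recomputed shares, 68 lay inside the 95% interval of the share given in the report and 31 outside it. The width of that interval depends on set size, so these counts do not measure stability. For the 7 cluster genes the DAP interval ran from 18.4 to 90.1%. For all protein-coding genes, with narrow intervals, the DAP share (82.3%) was 47.1% with the gene body only, 63.0% with 1 kb on either side, 69.0% with the flanks without the body, 90.9% with 5 kb, 81.0% by midpoint, 50.6% for the nearest gene only, 66.9% under both possible strands, and 74.7% and 74.5% with all genes read as plus or minus. The ampDAP share (32.6%) was 12.9%, 19.9%, 22.8%, 43.3%, 31.4%, 14.8%, 20.5%, 26.5% and 26.6% in the same order. For Aux/IAA genes the DAP share (89.7%) was 37.9% with the gene body only (ARF 54.5%) and 65.5% for the nearest gene only, and the ampDAP share (20.7%) was 3.45% and 6.9%. For ARF genes the ampDAP share (31.8%) was 13.6% in the flanks without the body (Aux/IAA 17.2%). For the cluster, the DAP share (57.1%) was 14.3% with the gene body only, and the ampDAP share (14.3%) was 0.0% with the body only, with 1 kb on either side and for the nearest gene only. For the other ARF genes the DAP share (80%) was 100% with 5 kb, and the ampDAP share (40.0%) was 13.3% in the flanks without the body. The share of DAP intervals at all protein-coding genes with an ampDAP partner (20.1%) was 21.7% with 1 bp of overlap and 17.9% with midpoints within 20 bp. The alternatives changed which bases could hold an interval or how near a partner had to be.

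The cluster had the lower share in 9 of 10 settings in each list. The exception was the flanks without the body, where the cluster had 57.1% against 53.3% in the DAP list and 14.3% against 13.3% in the ampDAP list. Relative to all protein-coding genes, Aux/IAA genes had the higher DAP share in 9 of 10 settings and the higher ampDAP share in 0 of 10. ARF genes had the higher DAP share in 4 of 10 and the higher ampDAP share in 8 of 10. The readings under both strands, as plus and as minus were added after the data had been examined. No paired analysis was possible because there was a single library per group, which also meant that no replicate could be omitted. Unknown depth and threshold limit every gene described as without an interval.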
